A study of Mus musculus with 6 samples.

Results

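Angiopoietins are secreted ligands of the receptor tyrosine kinase TIE2, encoded by *Tek*, which is found mainly on endothelial cells (ECs). ANGPT1, made by perivascular cells among others, activates TIE2 and stabilizes vessels. ANGPT2, made by ECs themselves and stored for release, can block or activate the receptor depending on context. TIE1 is an orphan co-receptor that modulates TIE2, and the receptor phosphatase VE-PTP, encoded by *Ptprb*, removes phosphate from TIE2. Downstream of active TIE2, the kinase AKT keeps the transcription factor FOXO1 out of the nucleus, and *Angpt2* itself is a known FOXO1 target. The 8 genes described here are *Angpt1*, *Angpt2*, *Tek*, *Tie1*, *Ptprb*, *Svep1*, which encodes an extracellular matrix protein that binds TIE1, and the angiopoietin-like genes *Angptl2* and *Angptl4*. They were chosen by gene symbol for their roles and not by a measured value, although earlier results of these data were known. All 8 were found among the 55416 genes of the count table.

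The data are RNA-Seq counts of ECs isolated from E15.5 heart ventricles, with 3 libraries labelled as biological replicates per genotype. All embryos carried 1 copy each of the tamoxifen-inducible Cre driver Pdgfb-CreERT2 (named Pdgfb-iCreERT2 in the paper) and of the R26-mTmG reporter, which switches from membrane Tomato to membrane GFP (mGFP) in cells where Cre has recombined. ControlΔEC embryos were Wt1-+/+ and Wt1KOΔEC embryos were Wt1-LoxP/LoxP, from the same litters. Their mothers received tamoxifen at 75 mg/kg by gavage between E11.5 and E13.5, and mGFP+ cells were sorted by FACS. The control genotype therefore has Cre, reporter and tamoxifen but no floxed allele, and the cells measured are those in which the Pdgfb-driven Cre had acted.

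Each library held between 26037324 and 44779020 counts. A level is given as CPM, the count scaled to library size and TMM factor, and 3 counts, the upper limit for a gene with none, make between 0.0608 and 0.119 CPM. *Wt1* was at 145, 109.6 and 148.7 CPM in the ControlΔEC libraries and at 14.0, 18.4 and 21.3 CPM in the Wt1KOΔEC libraries, a log2 fold change of -2.91 ± 0.22 (SE; edgeR quasi-likelihood test, adjusted p = 0.00319). The summed level of 8 EC markers was 5006 to 6438 CPM in ControlΔEC and 5185 to 6044 CPM in Wt1KOΔEC. Ribosomal *Rn18s* took 13.2 to 15.3% of the counts in ControlΔEC and 21.1 to 26.5% in Wt1KOΔEC, and mitochondrial genes 5.21 to 6.61% and 1.68 to 4.57%, both without overlap. Identifiers of the libraries are consecutive within each genotype but not between them, and their prefix differs between the genotypes. The sources name no batch, and any batch that coincided with genotype cannot be told apart from it.

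The receptors were by far the most abundant of these transcripts, and the ligand *Angpt1* was close to absent. Levels of different genes were compared as CPM per kb of exonic length (CPM/kb). This length counts each base that lies in an exon of any annotated transcript of the gene, whether or not that transcript was expressed. Values and places on this scale depend on that choice. In ControlΔEC, *Tie1* was at 121.7 ± 6.18 CPM/kb and *Tek* at 65.4 ± 2.60 CPM/kb (SD, n = 3), which placed them 196th and 378th of 54749 genes ordered on this scale. *Ptprb* followed at 18.1 ± 4.06 CPM/kb and *Angpt2* at 11.3 ± 3.98 CPM/kb. *Angptl4* and *Angptl2* were at 6.37 ± 1.46 and 5.97 ± 1.10 CPM/kb. *Svep1* was at 0.158 ± 0.0856 CPM/kb and *Angpt1* at 0.00622 ± 0.0108 CPM/kb, in place 21337 of the same order. Libraries of neighbouring genes in this order overlapped between *Angpt2* and *Angptl4* and between *Angptl4* and *Angptl2*, and not between the other neighbours. In Wt1KOΔEC, *Tie1* at 128.3 ± 15.9 CPM/kb and *Tek* at 56.7 ± 8.01 CPM/kb again came first. There *Angpt2* at 15.3 ± 3.40 CPM/kb and *Ptprb* at 14.8 ± 2.30 CPM/kb overlapped, as did *Angptl2* at 6.95 ± 1.21 with *Angptl4* at 5.70 ± 1.62 CPM/kb, and *Svep1* at 0.0808 ± 0.0932 with *Angpt1* at 0.0461 ± 0.0499 CPM/kb.

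**Figure D1:**
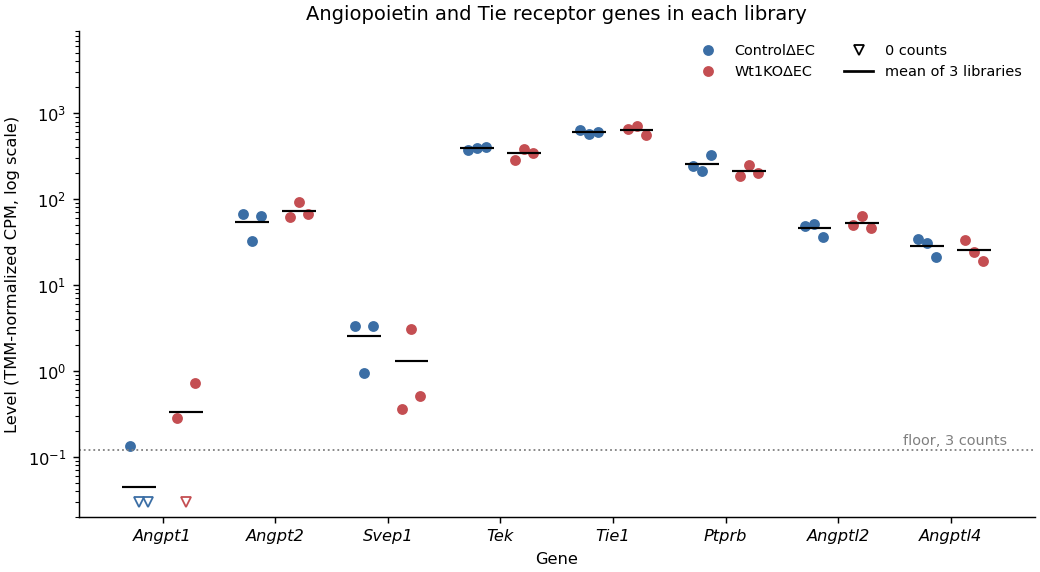
Level of each gene in each library, as TMM-normalized CPM on a log scale. Points are libraries of ControlΔEC (blue) and Wt1KOΔEC (red), bars are means of 3 libraries, open triangles at an arbitrary height mark libraries with 0 counts, and the dotted line marks the highest floor of 3 counts (0.119 CPM). The genotypes overlap for each of the 8 genes.

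The comparison of the genotypes asks whether endothelial loss of *Wt1* altered the transcripts of this receptor system. None of the 8 genes passed the test against the spread between libraries. All 8 passed the filter on low counts, and 0 of 8 had an adjusted p under 0.05 with an absolute log2 fold change above 0.58 in edgeR's quasi-likelihood test, where 0.0736% of the 16296 genes tested did. None had an unadjusted p under 0.05, against 13.1% of all genes tested, and none had CPM values that separated the genotypes, against 19.3%. DESeq2, which called 4.83% of the 15886 genes to which it gave an adjusted p, called none of them either. In Wt1KOΔEC 4 of the 8 were higher and 4 lower, with a median log2 fold change of -0.04, beside -0.03 over all genes tested. In sorted bulk samples, fewer cells with a transcript and less of it per cell cannot be told apart.

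**Figure D2:**
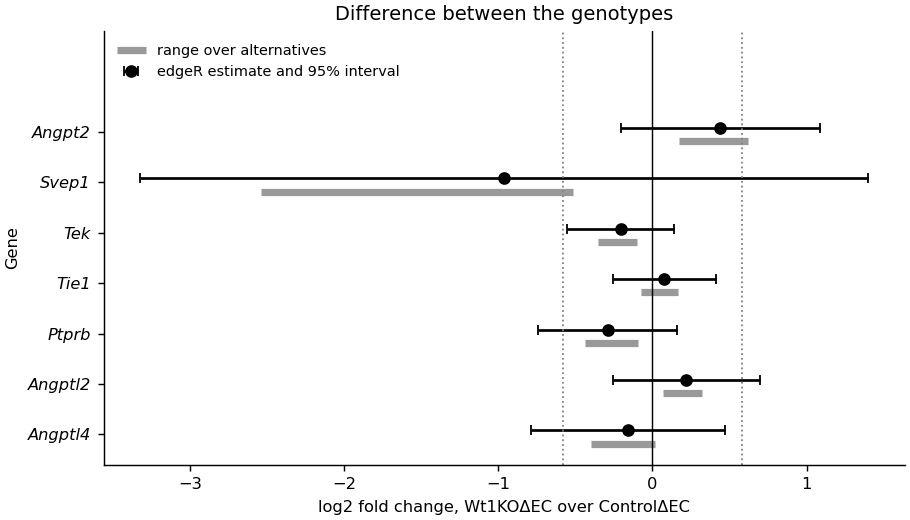
Log2 fold change of Wt1KOΔEC over ControlΔEC for 7 of the genes (*Angpt1*, present at 0 to 18 counts per library, is left out). Points and black bars are edgeR estimates with 95% intervals, grey bars span the alternative processing settings, and dotted lines mark the fold change limit of 0.58 in either direction; each interval includes 0.

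*Tek*, the receptor gene on chromosome 4 (94627291 to 94763224, plus strand, GRCm39), had the smallest spread among the control libraries relative to its level. Its levels were 376.8, 392.5 and 408.0 CPM in ControlΔEC and 288.5, 383.6 and 348.4 CPM in Wt1KOΔEC. The lowest values belonged to Wt1KOΔEC replicates 1 and 3, while Wt1KOΔEC replicate 2 lay within the control range. The log2 fold change was -0.21 ± 0.16 (SE), with a 95% interval from -0.56 to 0.14 (adjusted p = 0.655, edgeR quasi-likelihood). On a linear scale the interval runs from 32.0% below to 10.4% above the control level. The log2 fold change was -0.10 without Wt1KOΔEC replicate 1, the lowest library, and -0.36 with library size only.

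*Tie1*, the co-receptor gene on the minus strand of chromosome 4 (118328385 to 118347261), reached 640.1, 578.3 and 608.8 CPM in ControlΔEC and 651.2, 716.1 and 558.2 CPM in Wt1KOΔEC. The Wt1KOΔEC libraries held both the highest and the lowest value. Its log2 fold change was 0.08 ± 0.15 (SE; 95% interval -0.26 to 0.41, adjusted p = 0.906, edgeR), which is between 16.4% lower and 32.8% higher. The sign was negative with library size only (-0.07), with the length and GC offset (-0.06) and without Wt1KOΔEC replicate 2 (-0.01), so no direction is given for *Tie1*.

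*Ptprb*, which spans 116111428 to 116225440 on the plus strand of chromosome 10, showed 242.7, 210.5 and 323.4 CPM in ControlΔEC and 183.6, 248.0 and 203.6 CPM in Wt1KOΔEC. Wt1KOΔEC replicates 1 and 3 were below every control library and replicate 2 was between them. The log2 fold change was -0.29 ± 0.20 (SE; 95% interval -0.74 to 0.16, adjusted p = 0.618, edgeR). Without ControlΔEC replicate 3, which held the highest level, the log2 fold change was -0.10, and with library size only it was -0.44.

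Among the ligands, *Angpt2* was the one with a sizeable level. It lies on chromosome 8 (18739202 to 18791603, minus strand), and its levels were 66.5, 32.2 and 63.8 CPM in ControlΔEC and 61.7, 92.1 and 66.8 CPM in Wt1KOΔEC. ControlΔEC replicate 2 was the lowest library and Wt1KOΔEC replicate 2 the highest, with the other 4 close together. The log2 fold change of 0.44 ± 0.29 (SE; 95% interval -0.20 to 1.09) had the smallest unadjusted p of the 8 genes (0.156, adjusted p = 0.588, edgeR), and it was 0.18 without ControlΔEC replicate 2 and 0.25 without Wt1KOΔEC replicate 2. In the gene annotation looked up here (GENCODE vM39), the exons of *Angpt2* share 3387 bases with those of *Mcph1*, a gene on the opposite strand. Libraries of this protocol do not mark the strand, so reads from such a shared stretch cannot be told apart. The counts were made with another version of the annotation, in which the overlap was not checked. *Mcph1* was at 13.7, 30.8 and 27.6 CPM in ControlΔEC and at 15.4, 16.3 and 19.0 CPM in Wt1KOΔEC, and its highest level was thus in the library with the lowest *Angpt2*. Whether reads of one were assigned to the other was not tested.

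*Angpt1*, on the minus strand of chromosome 15 (42288058 to 42540417), received 6, 0 and 0 counts in ControlΔEC and 11, 0 and 18 counts in Wt1KOΔEC. Each genotype included libraries without a single count, at an upper limit of 0.0608 to 0.104 CPM for the controls concerned and 0.0843 CPM for Wt1KOΔEC replicate 2. The fitted log2 interval from -2.47 to 7.996 leaves the direction undetermined at this depth (adjusted p = 0.706, edgeR), and DESeq2 gave no adjusted p. Mural cells are perivascular cells and are among the cells known to make ANGPT1. Their markers had summed levels of 442 to 480 CPM in ControlΔEC and 310 to 364 CPM in Wt1KOΔEC. Most of this sum was *Abcc9*, at a mean of 263.1 CPM in ControlΔEC and 197.3 CPM in Wt1KOΔEC, and *Kcnj8*, which arterial ECs also express, at 64.3 and 50.5 CPM. The smooth muscle gene *Myh11* was at 0 in 4 of the 6 libraries, and *Tagln* and *Notch3* had mean levels between 2.03 and 3.85 CPM in both genotypes. Which cells the *Angpt1* counts came from was not tested. *Gm17473*, which in GENCODE vM39 overlaps 815 exonic bases of *Angpt1* on the opposite strand, had 0 counts in all 6 libraries. The other TIE2 ligand gene of the mouse, *Angpt4*, had 0 counts in all 6 libraries.

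*Svep1*, on the minus strand of chromosome 4 (58042442 to 58206859), was detected in every library but unevenly. It had 150, 47 and 96 counts in ControlΔEC and 14, 108 and 13 counts in Wt1KOΔEC, that is 3.35, 0.953 and 3.33 CPM against 0.358, 3.03 and 0.515 CPM. Wt1KOΔEC replicates 1 and 3 were below all controls, whereas replicate 2 was in the range of the controls. The log2 fold change was -0.96 ± 1.05 (SE; 95% interval -3.32 to 1.40, adjusted p = 0.789, edgeR), and -2.54 without Wt1KOΔEC replicate 2 (adjusted p = 0.553, with 0.553 to 0.955 over all alternatives). It was -0.52 without Wt1KOΔEC replicate 1 and -0.59 without Wt1KOΔEC replicate 3.

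The angiopoietin-like proteins resemble angiopoietins in structure but do not bind TIE2. *Angptl2* (chromosome 2, 33105946 to 33138252, plus strand) was at 48.9, 51.5 and 35.9 CPM in ControlΔEC and at 49.9, 63.3 and 45.6 CPM in Wt1KOΔEC. Its log2 fold change was 0.22 ± 0.21 (SE; 95% interval -0.26 to 0.70, adjusted p = 0.755, edgeR), and 0.07 without Wt1KOΔEC replicate 2, 0.08 without ControlΔEC replicate 3 and 0.07 with library size only. *Angptl4* (chromosome 17, 33992724 to 34000804, minus strand), whose product inhibits lipoprotein lipase, was at 34.1, 30.5 and 21.3 CPM in ControlΔEC and at 33.4, 24.4 and 19.0 CPM in Wt1KOΔEC. Replicate 3 was the lowest library of both genotypes for either gene. For *Angptl4* the log2 fold change was -0.16 ± 0.28 (SE; 95% interval -0.79 to 0.47, adjusted p = 0.890, edgeR), and its sign turned to 0.01 without Wt1KOΔEC replicate 3. It was -0.02 without ControlΔEC replicate 1, -0.33 without ControlΔEC replicate 3, -0.40 without Wt1KOΔEC replicate 1 and -0.32 with library size only.

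Ratios of counts within a library do not depend on the normalization between libraries, and 3 against 3 libraries cannot give an exact p below 0.1. The log2 ratio of *Tek* to *Tie1* was -0.76, -0.56 and -0.58 in ControlΔEC and -1.18, -0.90 and -0.68 in Wt1KOΔEC. The genotypes overlapped through ControlΔEC replicate 1 and Wt1KOΔEC replicate 3. Its mean was lower by 0.29 in Wt1KOΔEC, a difference of -17.9% (two-sided exact permutation test over libraries, p = 0.2), and with the offset for gene length and GC content the difference was -0.15 (exact p = 0.6). Per kb, *Tie1* exceeded *Tek* 2.04-, 1.77- and 1.79-fold in ControlΔEC and 2.71-, 2.24- and 1.92-fold in Wt1KOΔEC.

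*Angpt2* outnumbered *Angpt1* in all libraries. Per kb the excess was 743-fold in ControlΔEC replicate 1, 329-fold in Wt1KOΔEC replicate 1 and 141-fold in Wt1KOΔEC replicate 3. In the libraries without an *Angpt1* count, with *Angpt1* set to 3 counts per library, it was at least 793- and 920-fold in ControlΔEC and at least 1638-fold in Wt1KOΔEC. The log2 ratio with 0.5 added to each count differed by -1.81 between the genotypes (exact permutation test, p = 0.4), and by -0.71 with 5 added (exact p = 0.5), so its size depends on the pseudocount.

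The log2 ratios of *Ptprb* and of *Angpt2* to *Tek* were added after the values had been seen. *Ptprb* to *Tek* was -0.64, -0.90 and -0.34 in ControlΔEC and -0.65, -0.63 and -0.78 in Wt1KOΔEC, a difference of -0.06 (exact permutation test, p = 0.8). *Angpt2* to *Tek* was -2.50, -3.61 and -2.68 in ControlΔEC and -2.23, -2.06 and -2.38 in Wt1KOΔEC. All 3 Wt1KOΔEC libraries lay above all 3 controls, with a mean difference of 0.71 and an exact permutation p of 0.1, the smallest these samples allow. Of the ratios of *Tek* to each of the other 16295 genes tested, 20.5% separated the genotypes in one direction or the other, so a separation of this kind was frequent. Without ControlΔEC replicate 2 the difference was 0.37 (exact p = 0.2), and the *Mcph1* overlap named above applies to this ratio too.

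**Figure D3:**
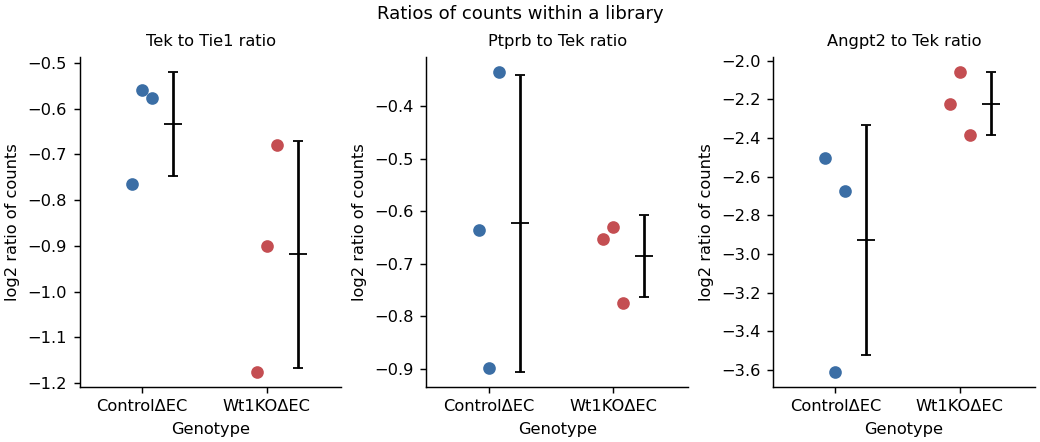
Log2 ratios of counts within each library for *Tek* to *Tie1*, *Ptprb* to *Tek* and *Angpt2* to *Tek*. Points are libraries of ControlΔEC (blue) and Wt1KOΔEC (red), and black bars are means with SD (n = 3). The genotypes overlap in the first 2 panels and are apart in the last, where ControlΔEC replicate 2 is the lowest point at -3.61; the vertical axes differ between panels.

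Genes that carry the TIE2 signal into the cell were examined as a list of 19 adaptors, kinases and related genes, 17 of which passed the count filter. None was called in either direction by edgeR. An unadjusted p under 0.05 was found for 0 higher and 3 lower genes, and 4 genes, all lower in Wt1KOΔEC, did not overlap between genotypes, beside 13.1% and 19.3% of all genes tested. These counts are not a result about the list. The median log2 fold change of the list was -0.26, with 11 genes lower and 6 higher. *Foxo1*, the transcription factor restrained by TIE2 and AKT signalling, was at 69.5, 86.9 and 45.2 CPM in ControlΔEC and at 38.0, 37.1 and 33.6 CPM in Wt1KOΔEC, so all mutant libraries were below all controls. Its log2 fold change was -0.89 ± 0.24 (SE), with an adjusted p of 0.209 by edgeR's quasi-likelihood test, 0.0230 by DESeq2 and 0.0478 by edgeR without the filter on low counts, and a range of 0.0230 to 0.501 over all alternatives.

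*Rasa1*, a RAS GTPase-activating protein, was at 51.5, 34.0 and 52.5 CPM in ControlΔEC and at 33.2, 23.9 and 25.3 CPM in Wt1KOΔEC (log2 fold change -0.74 ± 0.24 SE, adjusted p = 0.258, edgeR). With the length and GC offset the log2 fold change was -0.40 (adjusted p = 0.668, with 0.0622 to 0.668 over all alternatives). *Adam17*, a protease that sheds receptor ectodomains, was at 119.0, 110.8 and 106.9 CPM against 83.8, 92.2 and 76.6 CPM (log2 fold change -0.42 ± 0.15 SE, adjusted p = 0.293, edgeR). The genotypes did not overlap for either gene, as was so for 19.3% of all genes tested in one direction or the other. Neither gene passed the adjusted threshold of edgeR or of DESeq2. *Pik3r1*, the regulatory subunit of phosphoinositide 3-kinase, had a log2 fold change of -0.55 ± 0.25 (SE, adjusted p = 0.396, edgeR), or -0.30 without ControlΔEC replicate 2, and overlapped.

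Among 11 genes known as FOXO targets, none was called, 6 were higher and 5 lower, and the median log2 fold change was 0.12. *Ccng2*, an atypical cyclin, had the smallest p, at 56.2, 61.2 and 20.1 CPM in ControlΔEC and 21.3, 24.7 and 21.0 CPM in Wt1KOΔEC (log2 fold change -1.04 ± 0.37 SE, adjusted p = 0.290, edgeR). ControlΔEC replicate 3 was lower than all 3 mutant libraries. *Sesn3*, a stress-response gene, and *Cdkn1b*, a cyclin-dependent kinase inhibitor, had log2 fold changes of 0.72 ± 0.34 and 0.72 ± 0.39 (SE), and both were higher in each mutant library than in any control, as 19.3% of all genes tested were in one direction or the other, with adjusted p of 0.420 and 0.482 (edgeR).

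Around *Angptl4*, 8 of 9 lipoprotein lipase and PPAR genes were tested and none was called by edgeR. *Lpl*, the lipase, had a log2 fold change of -0.43 ± 0.24 (SE, adjusted p = 0.505, edgeR), or -0.22 without ControlΔEC replicate 1. *Ppard*, a PPAR gene at 4.68 CPM or less in every library, had one of -1.28 ± 0.87 (SE, adjusted p = 0.609, edgeR), or -0.66 without ControlΔEC replicate 2. *Gpihbp1*, which carries the lipase to the capillary lumen, had one of 0.34 ± 0.24 (SE, adjusted p = 0.625, edgeR), which was 0.15 without ControlΔEC replicate 2, 0.65 without ControlΔEC replicate 1 and 0.20 with library size only. *Pdk4*, a PPAR-responsive kinase of pyruvate dehydrogenase, was at 16.2, 6.001 and 38.7 CPM in ControlΔEC and at 83.4, 43.8 and 60.4 CPM in Wt1KOΔEC. Its libraries did not overlap, as was so for 19.3% of all genes tested in one direction or the other. The log2 fold change was 1.63 ± 0.56 (SE), with an adjusted p of 0.278 by edgeR and 0.0473 by DESeq2. It was 0.0203 by edgeR without the filter on low counts, with a range of 0.0203 to 0.616 over all alternatives. Without ControlΔEC replicate 3 the log2 fold change was 2.50.

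Receptors that bind these ligands or SVEP1, a list of 8 integrins and other receptors, gave 0 calls and a median log2 fold change of -0.13. *Pear1*, a receptor reported to bind SVEP1, was at 75.6, 113.4 and 77.9 CPM in ControlΔEC and at 117.8, 139.7 and 107.4 CPM in Wt1KOΔEC (log2 fold change 0.45 ± 0.20 SE, adjusted p = 0.383, edgeR), with an overlap through ControlΔEC replicate 2. With library size only its log2 fold change was 0.29. The integrin subunit gene *Itgb3* had a log2 fold change of -0.63 ± 0.41 (SE, adjusted p = 0.581, edgeR), which was -0.32 without ControlΔEC replicate 1, -0.40 without Wt1KOΔEC replicate 1 and -1.11 without Wt1KOΔEC replicate 2. Of 8 relatives and substrates of VE-PTP, 7 were tested and 0 called, with a median of -0.28. Within that list, the VEGF receptor gene *Kdr* was at 1178, 1029 and 1202 CPM in ControlΔEC and at 942.4, 991.3 and 859.9 CPM in Wt1KOΔEC, without overlap (log2 fold change -0.29 ± 0.14 SE, adjusted p = 0.425, edgeR, or -0.44 with library size only). *Ptprj*, another receptor phosphatase, did not overlap either (log2 fold change -0.88 ± 0.49 SE, adjusted p = 0.511, edgeR, or -0.43 without ControlΔEC replicate 2). Of all genes tested, 19.3% did not overlap in one direction or the other, so these 2 genes are not a result about the list.

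**Figure D4:**
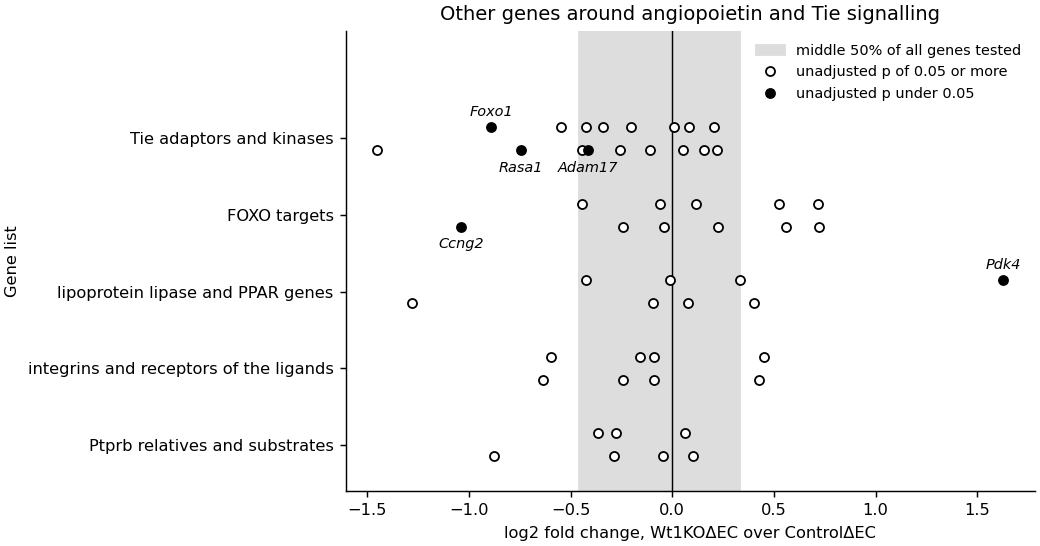
Log2 fold change of Wt1KOΔEC over ControlΔEC for the tested genes of 5 lists around the receptors, 1 point per gene. Filled points have an unadjusted p under 0.05 in edgeR's quasi-likelihood test, which 13.1% of all genes tested had, and the grey band covers the middle 50% of all genes tested (-0.46 to 0.33). The named filled points are *Foxo1*, *Rasa1*, *Adam17*, *Ccng2* and *Pdk4*, and none passed the adjusted threshold of this test.

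The libraries of the genotypes also differed in markers of other cells. Summed mural markers were lower in Wt1KOΔEC, as given above, with 3 of the 8 tested genes at an unadjusted p under 0.05, beside 13.1% of all genes tested. The log2 fold change was -1.25 ± 0.31 (SE) for the pericyte gene *Pdgfrb* (adjusted p = 0.196, edgeR, and 0.00805 by DESeq2). For *Cspg4* it was -1.22 ± 0.34 (SE; adjusted p = 0.220, edgeR, and 0.0149 by DESeq2). It was 0.92 for *Tagln*, -0.04 for *Acta2* and -0.26 for *Notch3*. Fibroblast markers summed to 679 to 983 CPM in ControlΔEC and to 1347 to 1554 CPM in Wt1KOΔEC, epicardial markers to 37.8 to 49.2 and 66.8 to 75.8 CPM, endocardial markers to 314 to 406 and 670 to 767 CPM, and lymphatic endothelial markers to 274 to 283 and 284 to 384 CPM, in each case higher in all mutant libraries. The lymphatic sums nearly met, at 283.2 and 283.7 CPM. Most of this sum was *Flt4*, at a mean of 237.8 CPM in ControlΔEC and 263.8 CPM in Wt1KOΔEC, and its libraries overlapped. Of the 5 lymphatic markers only *Prox1* did not overlap (log2 fold change 1.08, adjusted p = 0.235, edgeR). EdgeR called 1 fibroblast marker, *Col1a1* (log2 fold change 1.34, adjusted p = 0.0441), and 1 endocardial marker, *Plvap*, both higher. DESeq2 called 4 fibroblast, 2 epicardial, 2 endocardial and 1 lymphatic endothelial markers. It also called 2 mural, 1 cardiomyocyte and 2 erythroid markers, beside 4.83% of the genes to which it gave an adjusted p. Of 8 fibroblast markers 7 had positive log2 fold changes, 5 with an unadjusted p under 0.05 in edgeR's test. *Lum* was at 0.04 and *Postn* at -0.16. Among the 8 epicardial markers 6 had positive log2 fold changes, 2 with an unadjusted p under 0.05 in edgeR's test. *Aldh1a2* was at -0.05 and *Dmkn* at -0.34. Most of the epicardial sum in ControlΔEC was *Clu*, at a mean of 30.7 CPM and of 36.5 CPM in Wt1KOΔEC, and its libraries overlapped. *Msln* was at 1.32, 0 and 0.416 CPM in ControlΔEC and at 18.9, 2.75 and 7.76 CPM in Wt1KOΔEC. *Upk3b* had means of 2.03 and 9.05 CPM. *Plvap* went from a mean of 68.1 to 337.8 CPM (log2 fold change 2.31, adjusted p = 0.00319, edgeR) and made up most of the difference in the endocardial sum. All 5 endocardial markers had positive log2 fold changes, 3 with an unadjusted p under 0.05 in edgeR's test, beside 13.1% of all genes tested. The log2 fold change was 0.83 for *Cdh11* (adjusted p = 0.127, edgeR, and 0.00096 by DESeq2) and 1.01 for *Npr3*. It was 0.25 for *Nfatc1* and 0.04 for *Tmem100*. The sums of macrophage (226 to 684 and 142 to 231 CPM), erythroid (5188 to 11150 and 3637 to 6179 CPM) and cardiomyocyte markers (106 to 149 and 86.0 to 192 CPM) overlapped. All 7 macrophage markers had negative log2 fold changes, with a median of -1.07. An unadjusted p under 0.05 in edgeR's test was found for 5 of them, beside 13.1% of all genes tested. EdgeR called 0 of these markers and DESeq2 2. Among erythroid markers the embryonic globin gene *Hbb-y* had a log2 fold change of 2.57 (adjusted p = 0.129, edgeR, and 0.0132 by DESeq2) and the other globin genes had values between -0.79 and -0.53. Their part in the levels of the angiopoietin and Tie genes was not tested.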

How the data were processed

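ECs sorted for mGFP were sequenced from 3 ControlΔEC and 3 Wt1KOΔEC samples, grouped by their labels. The authors prepared SMARTseq2 libraries, aligned reads with STAR 2.7.8a, and estimated counts with RSEM 1.3.0. The deposited values are RSEM expected counts per gene, deposited as unnormalized whole numbers. The paper's methods name GRCm39 and the submitters' processing notes GRCm38, so the position, exonic length and GC content of each gene were looked up by identifier in GENCODE vM39 (GRCm39), which covered 16238 of the genes tested.

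The main analysis used edgeR 4.0.16 in R 4.3.3. A gene was tested if 2 or more libraries had 10 or more of its counts, TMM factors were applied, and the genotypes were compared with the quasi-likelihood F test and Benjamini-Hochberg adjustment over all genes tested. DEGs were genes whose adjusted p was below 0.05 and whose log2 fold change exceeded 0.58 in either direction. Standard errors are the log2 fold change divided by the square root of F. The authors used DESeq2. DESeq2 1.42.0 was run here on all genes as an alternative, as were limma-voom (limma 3.58.1), other filters and normalizations, an unadjusted p, a block for the replicate number, an offset fitted to exonic length and GC content by splines (5 degrees of freedom), and leaving out single libraries. A fit without *Rn18s* and mitochondrial genes, the offset for ratios and the ratios to *Tek* were added after seeing the data. Ratios within a library used 0.5 added counts and two-sided exact permutation tests. The edgeR, DESeq2 and limma-voom fits were tried on simulated counts with known fold changes, as were the edgeR fits with the block and with the offset. Those counts held no length or GC bias. The other filters and normalizations, the left-out libraries, the ratios, the levels per kb and the search for the closest genes were not tried in this way.

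The 8 genes and all lists were chosen with earlier results of these data known. Named beside them were *Wt1*, up to 4 genes per list with the smallest p, and the 3 genes closest to *Tek* and to *Angpt2* over the libraries; *Mcph1* and *Gm17473* were named for their overlaps, *Angpt4* as a ligand without counts, and marker genes that make up or depart from a sum after their values were seen. Depth was 26037324 to 44779020 counts per library, without molecular identifiers, so the floor of 3 counts covers counting error only. The labels call the samples biological replicates without naming animals or pools, and p-values measure the spread between these samples.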

Additional observations from a re-analysis of the deposited data

How the results depend on the processing

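None of the 8 genes was called under any of the alternatives, which included DESeq2, limma-voom and an unadjusted p, although the number of DEGs over all genes varied widely. The 12 DEGs of edgeR (8 higher, 4 lower) became 767 with DESeq2, 296 without a filter on low counts, 113 with at least 10 counts in every library, 5 with the replicate number as a block, 6 with the length and GC offset, 6 with this offset and the block together, and 1652 with an unadjusted p. Leaving out 1 library gave between 2 and 37 DEGs. With library size only, the median of all genes moved by -0.15 and the split was 5 higher and 6 lower. The causes were not tested.

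Of 140 log2 fold changes of the 8 genes over 18 alternatives, 135 kept their sign and 5 turned. *Tie1* turned to -0.074 with library size only, to -0.060 with the length and GC offset, to -0.060 with this offset and the block, and to -0.011 without Wt1KOΔEC replicate 2, and *Angptl4* to 0.014 without Wt1KOΔEC replicate 3. *Angpt1* could not be fitted under 4 of the 18 because it was filtered out. The *Angpt2* to *Angpt1* difference ranged from -3.66 to -0.58 and the *Tek* to *Tie1* difference from -0.40 to -0.16 when 1 library was left out. For *Tie1* the same left-out libraries gave -0.011 to 0.166, and for *Angptl4* -0.398 to 0.014. Among the other named genes that were followed over the alternatives, *Wt1* passed in all 18. *Foxo1*, *Pdk4* and *Pdgfrb* passed with DESeq2 and without a filter, and *Cspg4* with DESeq2, and all kept their sign. Marker genes outside this set, among them *Col1a1*, *Plvap* and *Hbb-y*, were not followed over all alternatives.

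Libraries with the same replicate number did not deviate together (correlations of 0.057, 0.004 and 0.020 between deviations from the genotype means), so the numbers were not taken as pairs. The fit with the replicate number as a block called 0 of the 8 genes, and with the numbers as pairs the ratio differences were -0.29 for *Tek* to *Tie1* (exact p = 0.25) and -1.81 for *Angpt2* to *Angpt1* (exact p = 0.5). With 3 pairs this exact test, which flips the signs of the differences, cannot give a p below 0.25. By CPM instead of CPM per kb, *Angptl2* preceded *Angptl4*. With 3 libraries per genotype the median SE of genes with at least 10 CPM was 0.24 on the log2 scale, which limits what could be detected.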

Other observations

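The genes whose log2 CPM followed *Tek* most closely over the 6 libraries, among 8471 genes with a mean of at least 10 CPM, were *Slc4a7*, a bicarbonate transporter gene, *Chka*, a choline kinase gene, and *Trip11*, a Golgi protein gene. Their root mean square differences from *Tek*, after centring each gene on its own mean, were 0.046, 0.048 and 0.061 log2 units, beside a spread of *Tek* about its mean of 0.165. For *Angpt2*, the nearest were *Ggcx*, *Gmeb2* and *Gemin5*, at 0.087, 0.116 and 0.119 log2 units beside a spread of 0.454. These are the closest of many genes over 6 libraries and describe these samples alone.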
